A study of Homo sapiens with 18 samples.

Results

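Tight junctions seal the space between neighbouring epithelial cells near their apical side. Claudins form the strands that set which ions pass between cells, occludin joins these strands, and junctional adhesion molecules hold the membranes together. The zonula occludens proteins bind claudins and occludin from inside the cell and tie them to actin. Pancreatic ducts are lined by such an epithelium, and loss of tight junction proteins is a known step when carcinoma cells leave it.

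The genes described here are 9 of the 58302 genes in the expression table: CLDN1, CLDN3, CLDN4, CLDN7, CLDN12, OCLN (occludin), F11R (the junctional adhesion molecule JAM-A), TJP1 (ZO-1) and TJP3 (ZO-3). They were chosen by a list drawn up with the FPKM values and peaks of these libraries in view, so their differences between groups are given as a description, with no test. All libraries came from PANC-1, a cell line established from a human ductal carcinoma of the pancreas, infected with lentivirus. The control cells (shCtrl) carried a control vector, and the NAT10-KD cells (shNAT10) carried an shRNA against NAT10, the enzyme that writes N4-acetylcytidine (ac4C) on RNA. The labels call the control vector empty, while the study's methods list a non-targeting shRNA, and which of the listed NAT10 shRNAs made these cells is not given in the sources used here. RNA-seq had 3 libraries per group, and ac4C immunoprecipitation with sequencing (acRIP-seq) had 3 immunoprecipitated and 3 input libraries per group, which the authors merged into 1 list of peaks per group. No source says that replicates were separate cultures, so each SD and p-value covers the spread between these libraries, which may be technical.

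NAT10 itself was at 31.6, 27.7 and 28.6 FPKM (fragments per kilobase of transcript, scaled to the reads of the library) in the shCtrl libraries and at 7.92, 8.43 and 7.90 FPKM in the shNAT10 libraries. Its mean was 3.59-fold lower in shNAT10 cells on the log2(FPKM + 0.1) scale, with a log2 difference of -1.84 (SE 0.08, limma adjusted p = 3.85e-05). The exact two-sided permutation test of 3 against 3 libraries gave p = 0.1, the smallest it can give. Depth recovered from the FPKM values was 15831720 to 23521762 reads per library. The keratin genes KRT8, KRT18 and KRT19 were all expressed in every library, as ductal cells would have them, whereas markers of endothelial cells summed to at most 0.651 FPKM and those of acinar cells to at most 0.0557 FPKM. The shCtrl libraries differed from each other with exon length. For each gene, a library was compared with the mean of the other 2 libraries of its group. In shCtrl replicate 2 this deviation went down with exon length (Spearman rho -0.47 across 12956 genes, which are not independent). It went up in shCtrl replicate 1 (0.44) and replicate 3 (0.27), and rho was -0.17 to 0.17 in the shNAT10 libraries.

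The acRIP-seq lists held peaks on 4 of the 9 genes. The shCtrl list had peaks on 3 of them, CLDN1, OCLN and F11R, beside 49.6% of all 12982 tested genes. The shNAT10 list had peaks on 2, CLDN4 and F11R, beside 47.7% of all tested genes. Since the peaks were known when the genes were chosen, nothing is read from these counts. CLDN3, CLDN7, CLDN12, TJP1 and TJP3 had no peak in either list.

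The coding peaks of CLDN1 and OCLN are shown because they are the ones listed in shCtrl cells and not in shNAT10 cells. CLDN1 forms claudin strands, and its peak lay on chr3:190308351-190312906 (GRCh38, minus strand) as 3 blocks of 209 bases in all, in exons 2 to 4 of 4, inside the coding sequence. Occludin's peak lay on chr5:69509501-69509681 (plus strand), 181 bases of exon 3 of 9, also inside the coding sequence. Both are printed 5′ to 3′ from the GENCODE v29 transcripts, with capitals where a C followed by any 2 bases occurs 4 times in a row (CNNCNNCNNCNN, sense strand, matches that overlap counted separately).
CLDN1: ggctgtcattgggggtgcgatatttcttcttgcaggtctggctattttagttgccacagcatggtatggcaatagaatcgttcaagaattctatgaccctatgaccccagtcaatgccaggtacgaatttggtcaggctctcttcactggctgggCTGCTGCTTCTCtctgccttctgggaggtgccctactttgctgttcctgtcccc
OCLN: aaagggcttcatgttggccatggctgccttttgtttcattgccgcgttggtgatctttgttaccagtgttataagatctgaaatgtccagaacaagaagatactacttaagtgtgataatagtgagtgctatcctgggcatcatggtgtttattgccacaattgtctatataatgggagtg
The CLDN1 peak held 1 such repeat and 25.8% C. No repeat was found in the OCLN peak, which was 16.0% C. Among windows of the same length over the coding sequences of the tested genes, 58.1% of 89328 windows of 209 bases and 54.0% of 103977 windows of 181 bases held the repeat. 

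By fold enrichment of IP over input, the peaks of the genes spanned a wide range. CLDN1's shCtrl peak had a fold enrichment of 61.2 (log10 p of -199), higher than the list's median of 49.3. OCLN's was lower, at 9.19 (log10 p of -62.1), where 19.1% of the shCtrl peaks had the same or a lower value. F11R, which holds cells together through contacts between its own molecules, had a peak in both lists, and both lay in the 3′ UTR, in exon 10 of 10. The shCtrl peak, chr1:160997429-160997669 (minus strand), had a fold enrichment of 57.1. The shNAT10 peak, chr1:160997309-160997549, had 6.31, where the median of that list was 45.2. They shared 121 of 241 bases, and the shNAT10 peak began further from the stop codon, 1325 bases after it against 1205. CLDN4 had no shCtrl peak and 2 overlapping shNAT10 peaks in the 3′ UTR, in exon 2 of the longest coding transcript that holds them. In that transcript the coding sequence begins at base 2681 of 4163, and exon numbers may differ in other CLDN4 transcripts. The 2 peaks were chr7:73832206-73832355 and chr7:73832191-73832368 (plus strand), with fold enrichments of 3.51 and 3.65. By fold enrichment these were the weakest peaks on the 9 genes, since only 6.47% and 6.90% of the shNAT10 peaks had the same or a lower value. By p-value the shNAT10 peak of F11R was weaker, with a log10 p of -37.1 against -42.5 and -44.3 for CLDN4. How the fold was scaled is not given in the sources used here, and each group gave 1 list, so no difference between the lists was tested. Only the shCtrl peaks of CLDN1 and F11R were in the upper 50% of their list by fold enrichment, and both were in the upper 50% by p-value too.

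In RNA-seq all 9 genes passed the filter for testing (1 FPKM or more in 3 or more libraries), and the values of most of them overlapped between the groups. CLDN3 and F11R were more than doubled or nearly so in shNAT10 cells, CLDN12 was somewhat higher and TJP3 somewhat lower. CLDN1, CLDN4, CLDN7, OCLN and TJP1 had overlapping values, which does not show that their levels were equal. Of the 9 genes, 3 (CLDN3, CLDN12 and F11R) were past an adjusted p of 0.05 and higher in shNAT10 cells in the fit over all genes, beside 20.8% of all tested genes, and 0 were past it and lower, beside 21.2%. CLDN12 was past it in only 8 of 16 settings of the fit. It was not past it without shCtrl replicate 3 or without any 1 of the shNAT10 libraries. The call was also lost with no FPKM floor, no variance trend, quantile normalization or a replicate block. With a log2 difference over 1 as a further condition, 1 gene (CLDN3) was higher, beside 2.91%. Values of the groups did not overlap for CLDN3, CLDN12 and F11R in the higher direction, beside 27.9% of tested genes, and for TJP3 in the lower direction, beside 28.6%. As the choice of the genes used this contrast, nothing is read from these counts and shares either. The median log2 difference of the 9 genes was 0.10, against -0.01 over all tested genes. In these bulk libraries, more RNA per cell cannot be told apart from more cells that express a gene.

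**Figure D1:**
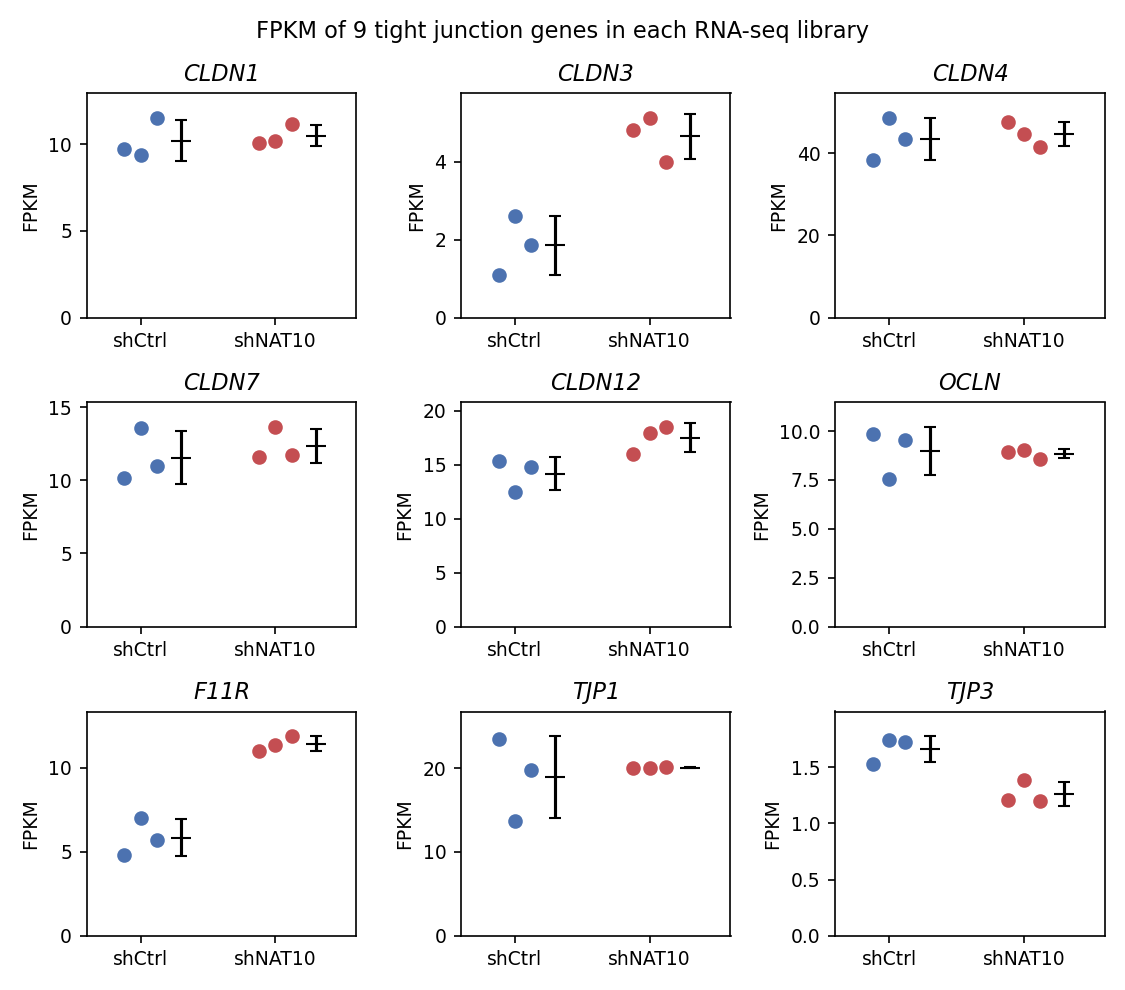
FPKM of each of the 9 genes (y axis, from 0) in the 3 shCtrl libraries (blue) and the 3 shNAT10 libraries (red), replicates 1 to 3 from left to right, with the mean and SD in black. The groups are apart for CLDN3, CLDN12, F11R and TJP3 and overlap for the other genes.

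Among the claudins, CLDN3 differed most. CLDN3 is a claudin that tightens the barrier. Its level was 1.09, 2.60 and 1.87 FPKM in shCtrl cells and 4.81, 5.13 and 3.996 FPKM in shNAT10 cells. Every shNAT10 library was above every shCtrl library, although the lowest and the highest shCtrl values were themselves far apart. The means were 1.85 ± 0.756 and 4.64 ± 0.584 FPKM (SD, n = 3 each), a 2.56-fold difference on the log2(FPKM + 0.1) scale (log2 difference 1.35, SE 0.29). CLDN3 was read from few fragments, 24 to 67 reads in shCtrl and 90 to 127 in shNAT10 libraries. Without any 1 library its log2 difference lay between 1.03 and 1.63.

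CLDN4, which lowers the passage of sodium between cells and is abundant in pancreatic carcinoma, was the highest of the 9 genes in both groups. It was at 38.4, 48.7 and 43.5 FPKM in shCtrl cells and at 47.5, 44.6 and 41.6 FPKM in shNAT10 cells. The shNAT10 values lay inside the shCtrl range, and the log2 difference was 0.04 (SE 0.10, 95% interval -0.20 to 0.28). CLDN3 and CLDN4 are neighbours on chromosome 7 on opposite strands, at 73768997 to 73770270 and 73799542 to 73832693. Between them, the ratio of CLDN4 to CLDN3 FPKM was 25.8 ± 8.598 (SD, n = 3) in the shCtrl libraries and 9.66 ± 0.873 in the shNAT10 libraries, with no overlap.

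CLDN12 lacks the C-terminal motif by which most claudins bind ZO proteins. It was at 15.3, 12.4 and 14.8 FPKM in shCtrl cells and at 16.0, 18.0 and 18.5 FPKM in shNAT10 cells. The highest shCtrl library and the lowest shNAT10 library nearly met, and the log2 difference was 0.30 (SE 0.10). Its exons share 16.3% of their bases with other genes of the same strand, CDK14 and GTPBP10 among them.

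CLDN1, needed for the barrier of skin and present in most simple epithelia, was at 9.72, 9.35 and 11.5 FPKM in shCtrl cells and at 10.1, 10.2 and 11.2 FPKM in shNAT10 cells. The groups overlapped (log2 difference 0.04, SE 0.10, 95% interval -0.19 to 0.28). The coding peak of CLDN1 was listed in shCtrl cells only, and a link between the peak and the level was not tested. CLDN7, a claudin of the lateral membrane that binds EPCAM, was at 10.1, 13.6 and 10.9 FPKM in shCtrl cells and at 11.6, 13.7 and 11.7 FPKM in shNAT10 cells. Its groups overlapped as well (log2 difference 0.10, SE 0.13, 95% interval -0.20 to 0.40). The exons of CLDN7 share 10.8% of their bases with the gene AC003688.1 on the same strand, which was listed at 0.

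Of 24 claudin genes in the table, 8 reached 1 FPKM in any library, and the 5 described here made up 92.4% to 94.0% of all claudin FPKM in every library. CLDN4 alone made up 44.8% to 51.9%. CLDN3 had a share of 2.07 ± 0.711% in the shCtrl libraries and of 4.86 ± 0.489% in the shNAT10 libraries. All claudins summed to 80.4, 93.7 and 89.03 FPKM in the shCtrl libraries and to 95.6, 97.9 and 92.7 FPKM in the shNAT10 libraries, where the highest shCtrl library lay above the lowest shNAT10 library.

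**Figure D2:**
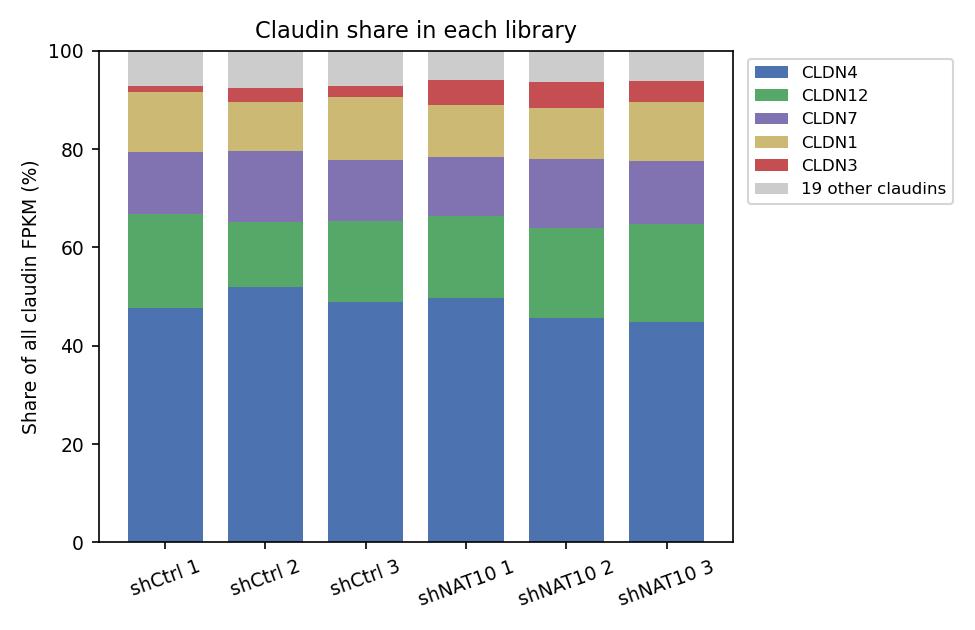
Share of each claudin in the summed FPKM of all claudins (y axis, percent) in each of the 6 RNA-seq libraries; each coloured part is 1 gene and grey stands for the remaining claudins. CLDN4 takes 44.8% to 51.9% throughout, and the part of CLDN3 is larger in the 3 shNAT10 libraries.

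F11R was at 4.80, 6.98 and 5.70 FPKM in shCtrl cells and at 11.03, 11.4 and 11.9 FPKM in shNAT10 cells. All 3 shNAT10 libraries were above all 3 shCtrl libraries, and they lay closer together. The means were 5.83 ± 1.09 and 11.4 ± 0.451 FPKM (SD, n = 3 each), a 1.97-fold difference on the same scale (log2 difference 0.98, SE 0.13, between 0.85 and 1.11 without any 1 library). Its exons share 36.6% of their bases with the gene AL591806.3 on the same strand, which itself was at no more than 0.0825 FPKM. How reads on shared bases were counted is not given in the sources used here. The levels of F11R, CLDN12 and CLDN7 may therefore be affected by these overlaps, which was not tested. OCLN was at 9.85, 7.56 and 9.56 FPKM in shCtrl cells and at 8.92, 9.02 and 8.59 FPKM in shNAT10 cells. The shNAT10 values lay within the shCtrl range (log2 difference -0.01, SE 0.11, 95% interval -0.27 to 0.25, and 0.09 with values as TPM). Its pseudogene OCLNP1, a possible home for shared reads, was at no more than 0.152 FPKM.

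TJP1 was at 23.5, 13.7 and 19.8 FPKM in shCtrl cells and at 20.1, 20.02 and 20.2 FPKM in shNAT10 cells. The shCtrl libraries were far apart and the shNAT10 libraries almost equal, so the log2 difference of 0.12 came with an SE of 0.18 and a 95% interval from -0.31 to 0.54. TJP3, the ZO protein restricted to epithelia, had the lowest mean of the 9 genes in both groups. It was at 1.53, 1.74 and 1.73 FPKM in shCtrl cells and at 1.21, 1.38 and 1.20 FPKM in shNAT10 cells. Every shNAT10 value was below every shCtrl value, with means of 1.67 ± 0.117 and 1.26 ± 0.104 FPKM (SD, n = 3 each) and a log2 difference of -0.37 (SE 0.15). It rested on 64 to 136 reads per library.

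Within the shCtrl group, replicate 2 was the highest library for CLDN3, CLDN4, CLDN7, F11R and TJP3 and the lowest for CLDN1, CLDN12, OCLN and TJP1. CLDN3 and CLDN7 have the shortest exons of the 9 genes (1274 and 2492 bases) and CLDN12, OCLN and TJP1 the longest (6741, 6761 and 11265 bases), the direction of the length trend of that library. CLDN1 (3663 bases) and F11R (5066 bases) went the other way. Without it the log2 differences were 1.63 for CLDN3, 1.11 for F11R, 0.21 for CLDN12 and -0.34 for TJP3. They were 0.12 for CLDN4, 0.22 for CLDN7, -0.02 for CLDN1, -0.13 for OCLN and -0.10 for TJP1, so that 4 genes rather than 2 had a value below 0.

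By level per length in shCtrl cells, CLDN4 came first at 43.5 ± 5.13 FPKM, followed by TJP1, CLDN12, CLDN7, CLDN1 and OCLN between 18.98 and 8.99 FPKM, then F11R at 5.83 FPKM. CLDN3 and TJP3 came last at 1.85 and 1.67 FPKM, and their values overlapped. From TJP1 down to OCLN, each gene overlapped the next one, whereas CLDN4 stood clear above and F11R clear below. In shNAT10 cells, F11R had moved up between CLDN7 and CLDN1 and overlapped both, and CLDN3 was clear of TJP3.

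The genes with the most similar pattern over the 6 libraries, by distance between log2 values centred on each gene, were PANX2 for CLDN3 (distance 0.28), PRDX4 for F11R (0.12) and ANO9 for TJP3 (0.07). PANX2 was at 0.283, 0.842 and 0.641 FPKM in shCtrl cells and at 1.35, 1.53 and 1.28 FPKM in shNAT10 cells. These were the nearest of all tested genes outside the list for the 3 genes with the largest log2 differences.

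Promoter sequence is shown for CLDN3, the gene with the largest difference, and for TJP1, which had none beyond its spread, as the 250 bases before the start where no annotated exon lies. They are from RefSeq on GRCh38.p14, 5′ to 3′ in the direction of the gene. Capitals mark GC boxes (GGGCGG or CCGCCC, the site of SP1-type factors) and the E-box that SNAI1 is known to bind (CAGGTG or CACCTG), searched on both strands. CLDN3 is at chr7:73770271-73770520 (minus strand) and TJP1 at chr15:29969050-29969299 (minus strand).
CLDN3: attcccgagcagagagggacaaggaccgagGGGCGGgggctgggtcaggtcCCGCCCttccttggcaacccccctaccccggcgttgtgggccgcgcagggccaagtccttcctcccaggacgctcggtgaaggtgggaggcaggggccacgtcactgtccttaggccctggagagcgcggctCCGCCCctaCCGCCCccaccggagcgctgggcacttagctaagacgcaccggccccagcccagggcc
TJP1: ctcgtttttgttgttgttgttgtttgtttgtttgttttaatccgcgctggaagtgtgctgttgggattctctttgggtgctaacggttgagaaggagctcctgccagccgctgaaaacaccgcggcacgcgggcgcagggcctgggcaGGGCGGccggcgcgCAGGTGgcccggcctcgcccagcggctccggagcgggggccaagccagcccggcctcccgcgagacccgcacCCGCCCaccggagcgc
The CLDN3 window held 4 GC boxes and 0 of these E-boxes, and the printed TJP1 window held 2 GC boxes and 1 E-box. TJP1 has further starts, and none of their windows held the E-box. One of them, chr15:29820675-29820924 (minus strand), also has no annotated exon and held 0 GC boxes. Of all 35116 promoters, 42.6% held a GC box and 17.5% held this E-box in these 250 bases. RefSeq lists 14 starts for 8 of the 9 genes, and 5 of these windows, of OCLN, TJP1, CLDN7 and TJP3, held the E-box. CLDN7, whose groups overlapped like those of TJP1, has another window without annotated exon, chr17:7263214-7263463 (minus strand). That window held 0 E-boxes and 0 GC boxes. The windows of CLDN1 and CLDN4, whose groups also overlapped, and of CLDN12 held no E-box, so the printed pair does not stand for the other genes. A match of letters is a description and shows no binding.

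Other tight junction genes moved in both directions. From a list of 63, 37 were tested, of which 11 fell, 12 rose and 14 did not pass (limma adjusted p of 0.05), beside 21.2% of all tested genes that fell and 20.8% that rose, with a median log2 difference of 0.10. With values as TPM, 10 fell and 13 rose. CGN, cingulin, which links the ZO proteins to myosin, fell from 6.05 ± 0.180 to 3.36 ± 0.229 FPKM (log2 difference -0.83, SE 0.09, adjusted p = 0.000542 by limma).

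MARVELD2, tricellulin, which closes the corner where cells meet, rose from 3.31 ± 0.329 to 5.47 ± 0.387 FPKM (log2 difference 0.71, SE 0.11, adjusted p = 0.00225). The polarity scaffold PATJ rose by 0.85 and AMOTL1, an angiomotin, by 1.14 on the log2 scale (adjusted p = 0.00142 and 0.00616 by limma). PARD3, which places junctions through the PAR complex, rose by 0.31 (adjusted p = 0.0145), a call lost without any 1 of the 3 shNAT10 libraries. The adhesion molecules JAM3 and ESAM fell, by 0.86 and 0.93 on the log2 scale (adjusted p = 0.000163 and 0.01005). CLDN23 also fell, by 0.89 (adjusted p = 0.0184), a call lost without shCtrl replicate 3, shNAT10 replicate 1 or shNAT10 replicate 2. Without shNAT10 replicate 2, 7 of the 37 genes fell, and 7 rose without shNAT10 replicate 1 or 3. The calls over all tested genes dropped in the same fits. Those that fell went from 2751 to 1897 without shNAT10 replicate 2. Those that rose went from 2699 to 1829 without shNAT10 replicate 1 and to 1785 without replicate 3. Peaks were listed for 14 of the 37 genes in shCtrl cells and for 17 in shNAT10 cells, 9 of them in both lists, beside 49.6% and 47.7% of all tested genes, so neither count stands above its background. CGN had 1 peak in the shNAT10 list and none in the shCtrl list, while PARD3 had 1 in the shCtrl list alone and MARVELD2 none.

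**Figure D3:**
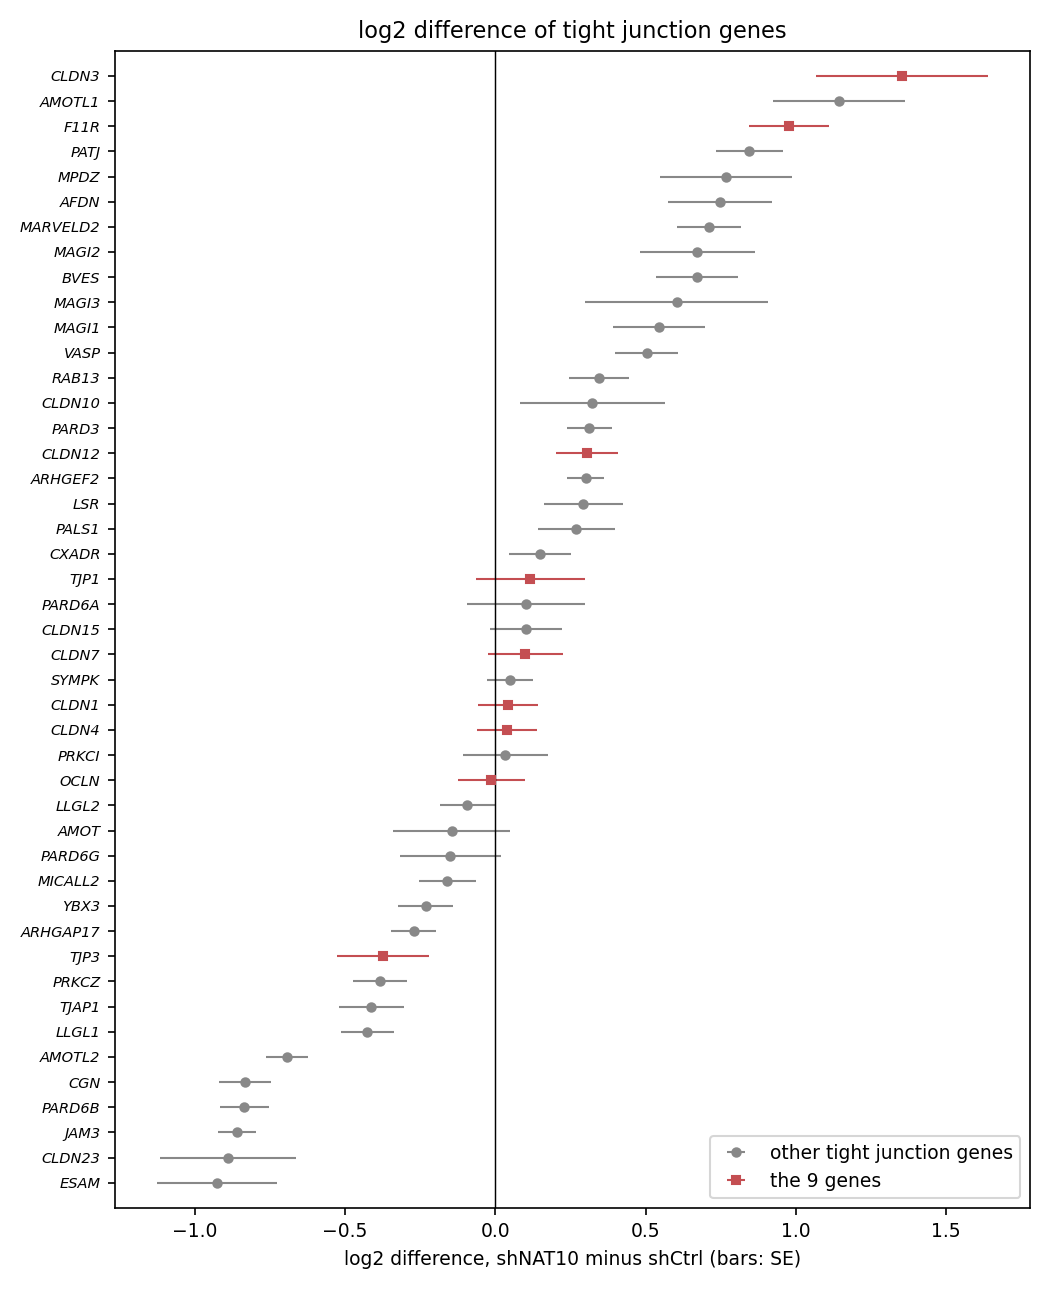
Difference in log2(FPKM + 0.1), shNAT10 minus shCtrl, with its SE (x axis) for the 9 genes (red squares) and the other tested tight junction genes reported here (grey circles), sorted by size. CLDN3 and F11R are near the top, 5 of the 9 genes lie close to 0, and ESAM is the lowest of the genes shown.

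In the neighbouring adherens junctions and desmosomes, 20 of 24 listed genes were tested, and 7 rose and 2 fell, beside the same 20.8% and 21.2% of all tested genes, with a median log2 difference of 0.15. PERP, a membrane protein of desmosomes, rose from 66.1 ± 4.56 to 236 ± 5.52 FPKM (log2 difference 1.84, SE 0.07, adjusted p = 3.84e-05 by limma). The plakin PPL and the plakophilin PKP4 rose by 0.83 and 0.65 on the log2 scale, and P-cadherin (CDH3) by 0.47. Vinculin (VCL), which ties junctions to actin, fell by 0.61. Desmoplakin (DSP) rose by 0.53, with an adjusted p of 0.0494 that lay above 0.05 in 6 of the 15 alternatives. E-cadherin (CDH1), the adhesion molecule of adherens junctions, was at 4.24 ± 0.781 and 5.31 ± 0.421 FPKM without passing (log2 difference 0.33, 95% interval -0.02 to 0.68, adjusted p = 0.111), and β-catenin (CTNNB1), which binds its tail, had a log2 difference of -0.12 (adjusted p = 0.199). Without shCtrl replicate 2, 5 genes fell, and without shNAT10 replicate 2 or 3 only 1 did. Without shCtrl replicate 3 or any 1 shNAT10 library, 4 genes rose. Calls over all tested genes moved in the same direction in these fits. Those that fell went from 2751 to 3318 without shCtrl replicate 2 and to 1897 and 1765 without shNAT10 replicates 2 and 3. Those that rose went from 2699 to between 1774 and 1978 without shCtrl replicate 3 or any 1 shNAT10 library.

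Among 15 regulators of the epithelial state, 6 were tested, of which 4 fell and 1 rose, with a median log2 difference of -0.44. Of all tested genes, 21.2% fell and 20.8% rose. With so few genes and a list written with earlier results known, nothing is read from these counts. SNAI1, a repressor of claudin, occludin and E-cadherin genes, fell from 8.07 ± 1.19 to 3.47 ± 0.572 FPKM (log2 difference -1.20, SE 0.15, adjusted p = 0.00116 by limma). The epithelial factors ELF3, KLF4 and GRHL3 fell too, by 0.82, 0.49 and 0.38 on the log2 scale, whereas ESRP2, an epithelial splicing factor, rose by 0.70. Of 7 ductal markers, 4 fell and 2 rose, beside the same 21.2% and 20.8% of all tested genes. EPCAM, the adhesion molecule that binds CLDN7, rose from 4.87 ± 0.783 to 22.6 ± 1.55 FPKM (log2 difference 2.20, SE 0.13, adjusted p = 6.88e-05), and the keratin KRT8 fell by 1.18 on the log2 scale. The summed FPKM of these ductal markers was 2830 to 3790 in shCtrl and 1539 to 1720 in shNAT10 libraries. Fibroblast markers summed to 29.6 to 34.7 FPKM and 19.3 to 22.9 FPKM, and immune markers to 2.28 to 2.96 FPKM and 1.41 to 1.62 FPKM, mainly through COL1A1 and CD14. The part of these markers in the differences of the tight junction genes was not tested.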

How the data were processed

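RNA-seq libraries (3 shCtrl, 3 shNAT10) and acRIP-seq libraries (3 IP and 3 input per group) of PANC-1 cells were grouped by their labels. The submitters' processing notes name HISAT2 version 2, HTSeq 0.11.0, DESeq2 1.22.2 and GRCh38, with no role given for each. For RNA-seq the authors deposited FPKM values, which match reads per length of the longest GENCODE v29 transcript, scaled to the library's reads: 96.6% of the values above 0 lay within 0.01 of a whole read. For acRIP-seq the authors deposited 1 peak list per group, holding the fold enrichment of IP over input (a ratio), the p-value and a log10 p score of each peak. The peak caller is not given in the sources used here. Peak starts, counted from 0 in the lists, are printed from 1.

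The 12982 genes that reached 1 FPKM in 3 or more libraries were fitted on log2(FPKM + 0.1) with limma 3.58.1 in R 4.3.3. The fit had a trend of the variance with the mean, and p-values were adjusted by Benjamini and Hochberg over all 12982 genes. Fold changes on this scale understate those of low genes. The 9 genes and all other gene lists were chosen with earlier results of these data known, so calls of the 9 genes in this fit are given as counts only, with nothing read from them, and p-values of the other lists are no independent evidence. Named by rule were the 9 genes, NAT10, CGN, MARVELD2, PARD3, CDH1 and CTNNB1, at most 6 genes per list with the largest log2 difference among those past the threshold, and the nearest gene to each of 3 genes. Some single results that the rule names are not reported here. Intervals are 95% intervals of the log2 difference from the same fit. Peaks were placed on the longest coding transcript that holds them, and overlap meant at least 1 shared base. The limma fit was tested on simulated data. Figures were drawn with matplotlib 3.10.9 under Python 3.11.15.

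Alternatives were a pseudocount of 1, a floor of 5 FPKM or none, quantile-normalized, median-centred or TPM values, a replicate block, a fit without the trend, voom on the recovered reads, and leaving out libraries 1 at a time. The peak alternatives kept the 50% of peaks strongest by fold enrichment or by p-value, or asked that overlaps cover 50% or more of both peaks. Counts of the 9 genes past the threshold were taken over these alternatives after seeing the data.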

Additional observations from a re-analysis of the deposited data

How the results depend on the processing

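Of the 9 tight junction genes, 2 (OCLN and TJP3) were lower in shNAT10 cells, 1 when values were rescaled to TPM (where OCLN was at 0.09) and 1 with a minimum FPKM of 5, which drops TJP3, and between 1 and 4 without 1 library. Those past the threshold and lower numbered 0, and 1 (TJP3) with no trend and 1 with voom on recovered reads. Those past it and higher numbered 2 or 3 throughout. F11R was among them in all 16 settings, CLDN3 in 15 (a floor of 5 FPKM drops it) and CLDN12 in 8. Over all 12982 tested genes, those past it and higher ran from 1774 (without shNAT10 replicate 2) to 3355 (values as TPM). Those past it and lower ran from 1765 (without shNAT10 replicate 3) to 3318 (without shCtrl replicate 2). As the choice of the 9 genes used this contrast, nothing is read from their counts. TJP3's log2 difference was -0.24 with a pseudocount of 1. Rescaling to TPM moved the median of all genes by 0.11 and the lower share of all calls from 50.5% to 38.2%. Without 1 library, between 7 and 12 other tight junction genes fell and between 7 and 13 rose, and between 1 and 5 adherens junction and desmosome genes fell and between 4 and 9 rose. In the same fits, between 1765 and 3318 of all tested genes fell and between 1774 and 3303 rose. In the 50% of peaks strongest by fold enrichment, and likewise in the 50% strongest by p-value, 0 of the 9 genes had a shNAT10 peak, so 0 shCtrl peaks then overlapped one. The F11R overlap, 1 in all, also covered 50% of both peaks.

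The replicate numbers do not pair the samples, since the labels give no shared batch and the deviations of same-numbered libraries correlated at -0.04, 0.06 and 0.11. With the replicate block, 2603 genes were lower and 2524 higher, against 2751 and 2699 without it. Depth limits CLDN3 and TJP3, which had 24 to 136 reads per library.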
